A study of Mus musculus with 2 samples.

Results

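Glypicans and syndecans are the families of cell-surface proteins that carry heparan sulfate, and 8 of their genes were followed here: Gpc1, Gpc3, Gpc4, Gpc6, Sdc1, Sdc2, Sdc3 and Sdc4. They were picked by symbol from the 18193 genes named on the array, with earlier results of these arrays known, and every probe set that the platform annotation gives to exactly 1 of them was read. That made 22 probe sets. No probe set named a member together with another gene. Mouse hearts of embryonic day 12.5 were dissociated, and live cells of the Tie2Cre lineage were sorted as negative for the blood markers CD41, CD45 and Ter119. There was 1 control array, of Tie2Cre;Tbx20 +/loxP cells, and 1 mutant array, of Tie2Cre;Tbx20 loxP/- cells. Both genotypes carry the Tie2Cre transgene and a loxP allele of Tbx20, a cardiac transcription factor with a T-box DNA-binding domain, so control cells in which Cre has acted keep 1 working allele and mutant cells keep none. The mutant's other allele is the null allele, present in all its cells. Tie2Cre acts in endothelium, endocardium, their descendants in the valve cushions, and blood cells. The sources used here do not say how many hearts went into each array.

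Heparan sulfate is a sulfated sugar chain that binds growth factors and matrix proteins, among them FGF, BMP, Wnt, Hedgehog and VEGF proteins. Glypicans hold it close to the membrane on a globular core fixed by a lipid anchor, and can raise or lower the response to these ligands. Syndecans hold it on an extended ectodomain joined to a membrane-spanning segment and a short cytoplasmic tail, which links the chain to the cytoskeleton and to kinases. In the heart the cushions grow as endocardial cells turn into mesenchyme within an extracellular matrix.

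Of the 22 probe sets, 19 were measured, that is, read above the floor on both arrays. The floor was the median of the non-control probe sets, a signal of 91.3 on the control array and 82.4 on the mutant array. The other 3 lay under the floor on both arrays and are 1 probe set each of Gpc6, Sdc2 and Sdc3. All 8 genes kept at least 1 measured probe set. With 1 array per genotype nothing has a replicate, so no p-value is given and every difference is between these 2 arrays. Differences are log2 ratios of mutant over control, where -1 is 2-fold lower. As the available measure of error, probe sets of the same gene differed in their ratios with an SD of 0.46 at mean signals under 200, 0.36 from 200 to 1000 and 0.27 over 1000. This error covers the probes and not the animals.

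Among the 19 measured probe sets, 11 were lower on the mutant array and 8 higher, against 50.1% lower among all 19273 measured single-gene probe sets. The glypicans had 6 of 8 probe sets lower, with a median log2 ratio of -0.54. These are not 6 separate genes, as 2 of them read Gpc4 and 3 read Gpc6. The syndecans had 5 of 11 lower, with a median of 0.01. By size, 5 of the 19 were at least 1.5-fold lower, 1 from each of Gpc1, Gpc4 and Gpc6 and the others from Sdc1, and 0 were at least 1.5-fold higher. Over all measured probe sets these shares were 7.29% and 5.35%. At 2-fold there was 1 lower member probe set, of Gpc4, against a background of 1.46%, and 0 higher, against 0.773%.

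**Figure D1:**
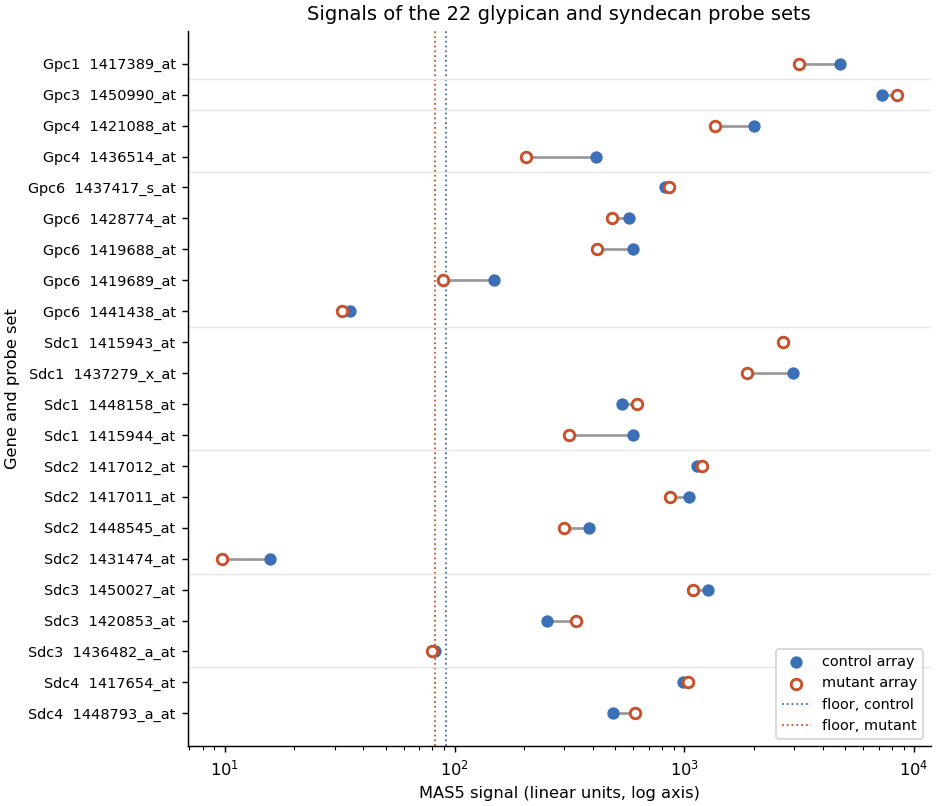
MAS5 signal on a log axis for each of the 22 probe sets, filled blue points for the control array and open red points for the mutant array, joined by a line, with dotted lines at the floors of 91.3 and 82.4. Gpc1, both Gpc4 probe sets and 2 of the 4 Sdc1 probe sets have the mutant point to the left, as do the 3 measured Gpc6 probe sets without a suffix, Gpc3 and both Sdc4 probe sets have it to the right, and 3 probe sets lie under both floors.

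Taking for each gene its brightest probe set, 0 of the 8 members reached 2-fold in either direction, where 1.46% of the 10665 measured genes were at least 2-fold lower and 0.647% at least 2-fold higher. On that basis 3 members were lower and 5 higher, against 51.0% lower over all measured genes. By family, 2 of 4 glypicans were lower (median -0.26) and 1 of 4 syndecans (median 0.04). The median of the 8 was 0.03 and that of all measured genes -0.01 (SD 0.38 over genes). Taking instead the median over a gene's measured probe sets, the median of the 8 was -0.30. With the brightest unsuffixed probe set it was -0.10, after quantile normalization -0.0016 and after loess -0.0087. The family median by brightest probe set thus lies near 0 with no settled sign, and every probe set is given in turn.

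Gpc1, a glypican found on many cell types and a coreceptor for FGF ligands, read 4771 in control and 3147 in mutant cells on its single probe set, 1417389_at. The mutant signal was 66.0% of control, a log2 ratio of -0.60. That is 2.20 times the SD between probe sets of a gene at this brightness, and 2.74% of the 6500 measured probe sets over a signal of 1000 were lower still. Gpc1 was also the member, by brightest probe set, that was at least 1.5-fold lower, which held for 6.61% of all measured genes. No second probe set checks it. Its ratio lay between -0.61 and -0.59 over the 8 alternative ways of scaling, flooring and choosing probe sets. With a single probe set far above the floor, the floors and probe set choices could not change it. Those alternatives are therefore no check on Gpc1.

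Gpc4, a glypican that binds Wnt and BMP ligands, was lower on both of its probe sets. Probe set 1421088_at read 2005 in control and 1362 in mutant cells, a log2 ratio of -0.56. The dimmer 1436514_at read 414 and 205, a log2 ratio of -1.01 or 2.02-fold lower. The ratios averaged -0.79 (SD 0.32 over 2 probe sets), and 1.17% of the 9462 measured probe sets with signals from 200 to 1000 were lower than the second. Of the 5174 genes with several measured probe sets, 22.5% had all of them lower, 22.6% had all higher and 54.9% had both directions. Among the 6 members with several, Gpc4 had all lower, Sdc4 had all higher and the other 4 had both directions.

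Gpc3, whose loss causes the overgrowth disorder Simpson-Golabi-Behmel syndrome and which restrains Hedgehog signalling, was bright on both arrays and higher in the mutant. Its single probe set, 1450990_at, read 7221 in control and 8411 in mutant cells, a log2 ratio of 0.22. This is under 1 SD between probe sets of a gene at that brightness, at 0.81 times the SD. It was higher under all 8 alternatives, from 0.22 to 0.28, but the floors and probe set choices could not change a single bright probe set. Gpc3 and Gpc4 stood on opposite sides of 0 under every alternative tried, but the floors and probe set choices could not have turned either gene.

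The pair are neighbours on the X chromosome, with 0 protein-coding genes between them in the RefSeq annotation of assembly GRCm38.p6. Xist, the RNA of the inactive X chromosome in female cells, had signals of 2040 and 1401 in control and mutant on its brightest probe set. The part of the embryos' sex in the values of Gpc3 and Gpc4 was not tested. The 250 bases before each start site, from RefSeq on build GRCm38.p6, are shown for this pair because the neighbours differed in direction. Capitals mark the GC box GGGCGG on either strand.
Gpc4, chrX:52164924-52165173, minus strand: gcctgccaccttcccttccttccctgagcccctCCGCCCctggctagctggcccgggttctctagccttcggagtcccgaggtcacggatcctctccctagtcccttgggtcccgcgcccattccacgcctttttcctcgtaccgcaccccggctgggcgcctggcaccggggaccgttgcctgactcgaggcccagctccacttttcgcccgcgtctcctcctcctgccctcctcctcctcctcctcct
Gpc3, chrX:52613975-52614224, minus strand: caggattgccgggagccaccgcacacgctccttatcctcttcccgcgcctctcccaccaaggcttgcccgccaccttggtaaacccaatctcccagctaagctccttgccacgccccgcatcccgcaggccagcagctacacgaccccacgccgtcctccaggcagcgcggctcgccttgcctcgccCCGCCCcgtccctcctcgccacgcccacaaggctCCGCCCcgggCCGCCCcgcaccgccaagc

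Gpc4 held 1 GC box, starting 217 bases before the start site, and Gpc3 held 3, starting 63, 29 and 19 bases before it. Windows were found for 5 of the 8 members: Gpc3, Gpc4, Sdc1, Sdc3 and Sdc4. All 5 held GGGCGG on either strand, as did 32.7% of the 32851 windows of the same length in the table. Their GC content ran from 66.0% in Sdc1 to 76.4% in Sdc3, against a median of 52.4% over all windows. The letters TATAA, on either strand, were in Sdc1 and Sdc4, and in 22.8% of all windows. The T-box core AGGTGT, on either strand, was in 0 of the 5 and in 11.8% of all windows. None of these motifs overlaps another in the member windows, apart from TATAA with itself on the opposite strand in Sdc1. A match is a description of letters, and its absence from this window says nothing about binding elsewhere.

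Gpc6, a glypican that stimulates Hedgehog signalling in growing bone, gave 4 measured probe sets that did not share a direction. The brightest, 1437417_s_at, read 827 in control and 853 in mutant cells, a log2 ratio of 0.04. The suffix s marks a set whose probes match several transcripts. Probe set 1428774_at read 574 and 484 (log2 ratio -0.25), and 1419688_at read 598 and 416 (log2 ratio -0.53). The dimmest, 1419689_at, read 148 and 89.1 (log2 ratio -0.73), and its mutant signal was 1.08 times the floor. So the 3 probe sets without a suffix were lower and the suffixed one was not. The mean over the 4 was -0.36 (SD 0.34), and the ratios spanned 0.77. Of 498 genes with 4 measured probe sets, 31.7% spanned at least as much. The fifth, 1441438_at, read 35.1 and 32.3, under the floor.

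The family's other members were read beside the 8. Gpc2, known from the developing nervous system, read 378 and 398 on its single-gene probe set (log2 ratio 0.08). Gpc5, the neighbour of Gpc6 on chromosome 14, read under the floor on both arrays.

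**Figure D2:**
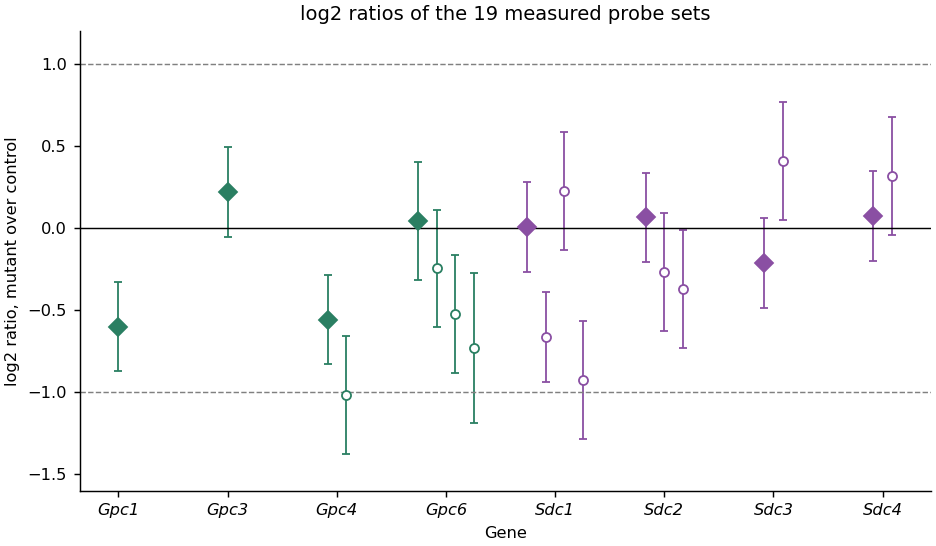
log2 ratio of mutant over control for the 19 measured probe sets, grouped by gene, glypicans in green and syndecans in purple. The filled diamond is the gene's brightest probe set, bars are 1 SD between probe sets of a gene at that brightness (0.46, 0.36 or 0.27), and dashed lines mark 2-fold. Bars lie wholly below 0 for Gpc1, both Gpc4 probe sets, the 2 dimmer measured Gpc6 probe sets, 2 of Sdc1 and 1 of Sdc2. The bar of the dimmer measured Sdc3 probe set, at 0.41, lies wholly above 0. The Sdc1 probe sets spread from -0.93 to 0.22.

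Sdc1, a syndecan typical of epithelia and plasma cells that also appears in condensing mesenchyme, had the widest disagreement. Its 2 brighter probe sets were 1415943_at, which read 2683 in control and 2697 in mutant cells (log2 ratio 0.01), and 1437279_x_at, which read 2959 and 1869 (log2 ratio -0.66). Its dimmer ones were 1415944_at, which read 600 and 316 (log2 ratio -0.93), and 1448158_at, which read 532 and 622 (log2 ratio 0.22). So 2 probe sets were lower by over 2 times the SD expected at their brightness and the others were flat or higher, within each brightness class alike. The suffix x marks a set with probes that may also match other sequences, but 1415944_at, which carries no suffix, was lower too.

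The mean ratio of Sdc1 was -0.34 (SD 0.54 over 4 probe sets) and the span was 1.15. Among the 498 genes with 4 measured probe sets the median span was 0.61, and 10.6% spanned at least as much as Sdc1. The 3' over 5' signal ratio of the Gapdh controls, a sign of RNA and labelling quality, was 2.27 for the control array and 1.64 for the mutant array, and that of Actb was 0.989 and 0.998. Which part of the transcript each Sdc1 probe set reads was not analysed here, so the part of these values in the disagreement was not tested.

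Sdc2, a syndecan of mesenchymal and endothelial cells, had ratios on both sides of 0, all smaller than those of Gpc1. Probe set 1417012_at read 1138 in control and 1191 in mutant cells (log2 ratio 0.07). Probe set 1417011_at read 1045 and 867 (log2 ratio -0.27), and 1448545_at read 386 and 298 (log2 ratio -0.37). The mean was -0.19 (SD 0.23 over 3 probe sets), which is less than 1 SD from 0. The fourth, 1431474_at, read 15.7 and 9.70, under the floor.

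Sdc3, the syndecan best known from neurons, was lower on 1 probe set and higher on the other. Probe set 1450027_at read 1264 in control and 1091 in mutant cells (log2 ratio -0.21), and 1420853_at read 253 and 336 (log2 ratio 0.41). Their mean was 0.10 (SD 0.44), so these 2 arrays give no direction for Sdc3. The third, 1436482_a_at, read 82.4 and 79.4, just under the floor on each array.

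Sdc4, which sits in focal adhesions and activates protein kinase C alpha, was slightly higher on both of its probe sets. Probe set 1417654_at read 990 in control and 1041 in mutant cells (log2 ratio 0.07), and 1448793_a_at read 491 and 611 (log2 ratio 0.32). Both differences were within 1 SD between probe sets of a gene, at 0.27 and 0.88 times the SD. The suffix a marks probes shared by several transcripts of the same gene.

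**Figure D3:**
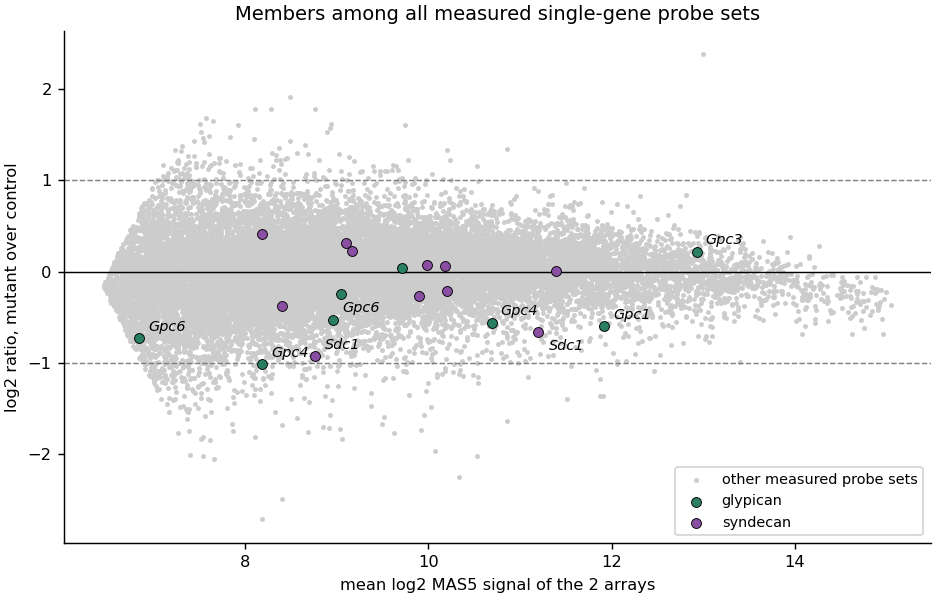
log2 ratio of mutant over control against the mean log2 MAS5 signal of both arrays, for the 19 member probe sets (glypicans green, syndecans purple) over all 19273 measured single-gene probe sets in grey, with dashed lines at 2-fold. Gpc1 at -0.60, Gpc4 at -0.56 and -1.01 and Sdc1 at -0.66 and -0.93 lie toward the lower edge of the grey cloud at their brightness, and the other syndecan probe sets lie well inside it.

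In the mouse genome each syndecan lies close to a gene of the matrilins, which are matrix proteins of cartilage and other tissues. In the RefSeq annotation of GRCm38.p6, 1 protein-coding gene separates Sdc1 from Matn3, Sdc3 from Matn1 and Sdc4 from Matn4, and 5 separate Sdc2 from Matn2. Matn1 and Matn3 read under the floor on both arrays. Matn2 read 150 and 162 on its brightest probe set (log2 ratio 0.11). Its other probe set read 70.3 in control cells, under the floor, and 173 in mutant cells, above it. Matn4 read 222 in control and 91.4 in mutant cells, close to the floor (log2 ratio -1.28), while its neighbour Sdc4 was at 0.07 and 0.32. The matrilins were picked for their position, with the value of Matn4 already known.

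The other genes listed around heparan sulfate showed no common direction. Their proteins carry or build the chain, act in its editing, release and turnover, or partner syndecans inside the cell. Of 66 such genes, 62 were matched on the array and 51 were measured by their brightest probe set. Of these 51, 25 were lower and 26 higher, and their median log2 ratio was 0.03. In this list 1 of 51 genes was at least 2-fold lower and 0 were 2-fold higher, against 1.46% and 0.647% of all measured genes. At 1.5-fold 3 were lower and 3 higher, where 6.61% and 4.37% of all measured genes passed. The count at least 2-fold lower was 2 of 58 with a floor set at the 25th percentile, where 3.95% of all measured genes passed. It was 0 of 48 with unsuffixed probe sets, where 1.57% of all measured genes passed.

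The gene past 2-fold was Papss2, an enzyme that makes PAPS, the sulfate donor for heparan and other sulfated glycans. Its brightest probe set read 5259 in control and 2501 in mutant cells, a log2 ratio of -1.07 or 2.10-fold lower. Its other measured probe sets read 3841 and 2186 (log2 ratio -0.81), and 2282 and 978 (log2 ratio -1.22). All 3 were thus lower, by more than any member gene's mean. Its relative Papss1, named outside the rule, read 936 and 985 (log2 ratio 0.07). In the same group of linker and chain synthesis 7 of 14 measured genes were lower. The xylosyltransferase Xylt2, which starts the linker, was at 0.53 from a dim signal of 127 in the control. The xylose kinase Fam20b was at 0.42 and the exostosin-like Extl2 at 0.36, with their other measured probe sets at 0.07 and 0.05.

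Enzymes of sulfation and epimerisation of the chain went both ways, with 5 of 9 lower. Among the 6-O-sulfotransferases Hs6st1 read 686 and 1010 (log2 ratio 0.56) and Hs6st2 read 587 and 395 (log2 ratio -0.57), with its other measured probe set at -0.31. The 3-O-sulfotransferase Hs3st4 read 275 and 473 (log2 ratio 0.78). The epimerase Glce read 792 and 548 (log2 ratio -0.53), although 1 of its other probe sets was at 0.21.

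Among genes of editing, release and turnover, 8 of 14 were higher. Sulf1, a sulfatase that removes 6-O-sulfate from chains outside the cell, was higher on both measured probe sets. They read 1904 and 2953 (log2 ratio 0.63), and 125 and 219 (log2 ratio 0.81). Notum, a secreted enzyme that inactivates Wnt proteins, read 202 and 128 (log2 ratio -0.66). The lysosomal enzymes Naglu and Gusb were at 0.47 and 0.39, with the other probe set of Gusb at 0.01.

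Other proteins that carry heparan sulfate had 4 of 8 lower. Tgfbr3, the TGF-beta coreceptor betaglycan, was higher on both probe sets, which read 2675 and 3454 (log2 ratio 0.37), and 2420 and 3220 (log2 ratio 0.41). The basement membrane proteoglycans Hspg2, or perlecan, and Col18a1 were at -0.19 each, and Nrp1 at 0.13. Among partners of the syndecan tail 3 of 6 were lower. Tiam1, a Rac activator, was at -0.68 on its brightest probe set and 0.71 on the next, so it has no direction here. Cask was at 0.52 with probe sets from -0.39 to 0.77, Entr1 at 0.60 with probe sets from -0.51 to 0.66, and Gipc1 at 0.37 on a single probe set.

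**Figure D4:**
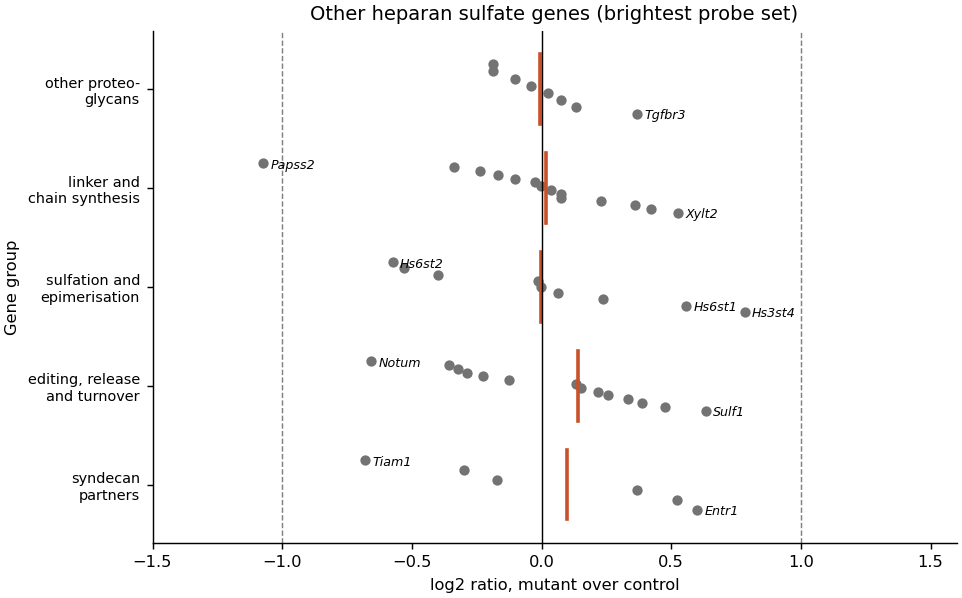
log2 ratio of mutant over control for the 51 measured heparan sulfate genes outside the 8 members, 1 grey point per gene by its brightest probe set, in 5 groups, with a red bar at each group's median and dashed lines at 2-fold. Papss2 at -1.07 is the point past 2-fold, Sulf1 is at 0.63, and all 5 medians lie between -0.01 and 0.14.

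The arrays were checked against cell type markers and Tbx20. Tbx20 was detected on both, its 3 probe sets at 60.2% to 85.9% of control in the mutant. The labels do not say which exons are floxed, so this may check nothing. The 6 endothelial markers, among them Cdh5, Emcn, Tek and Pecam1, were bright, with a median log2 ratio of 0.10, and summed to 44378 in control and 46568 in mutant cells. All 5 endocardial markers were measured, with a median of 0.07 and a range from -0.85 in Cytl1 to 0.25 in Npr3. Nfatc1 was at -0.33, with 4 of its 5 probe sets lower, the lowest at -1.58. By brightest probe set the 10 markers of cushion mesenchyme, a list that holds Tbx20, were all lower, against 51.0% of all measured genes. Their median was -0.38. They ran from -0.75 to -0.07 and summed to 64674 and 51967. The ratios of Sox9, Tbx20, Pdgfra, Col1a1 and Col3a1 were smaller than the SD of 0.27 between probe sets at their brightness. Pdgfra had 1 of its 3 probe sets higher, at 0.20. Epicardial markers were higher for 8 of 8 measured, with a median of 0.62, summing to 4887 and 8453. Among them Upk3b was at 1.35 and Lrrn4 at 1.22, and Upk1b, above the floor in mutant cells alone on its brightest probe set, was at least 2.95-fold higher. Cardiomyocyte markers had 3 of 6 lower, with a sum of 18820 and 20723, although Nkx2-5 read under the floor. Smooth muscle and pericyte markers summed to 7155 and 6647, and erythroid and megakaryocyte markers to 11412 and 7576, mostly Hbb-y, with Klf1 at -1.10. Of neural crest and neural markers 2 of 6 were measured, Ednrb and Tubb3. Ednrb was at 0.84 from signals of 5377 and 9622 on its brightest probe set, and at 0.41 and 0.29 on the others. Tubb3 was at -0.20. Sox10 was above the floor in control cells alone, at least 1.66-fold lower in the mutant, and Foxd3 was under the floor on both arrays. Of leukocyte markers 1 of 6 was measured, Cd68 at 0.79 from a dim 93.8 in control cells. Cx3cr1 and Csf1r were above the floor in control cells alone, at least 2.74-fold and 1.74-fold lower in the mutant. Ptprc, which encodes CD45, read under the floor on both arrays.

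By brightest probe set, the mesenchymal markers were lower and the epicardial markers higher on the mutant array, while the 8 members went both ways. These arrays do not show which cell type each member is read from. The part of the marker shifts in the values of the 8 genes was not tested. In sorted cells measured in bulk, fewer cells of a type and less RNA per cell cannot be told apart.

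**Figure D5:**
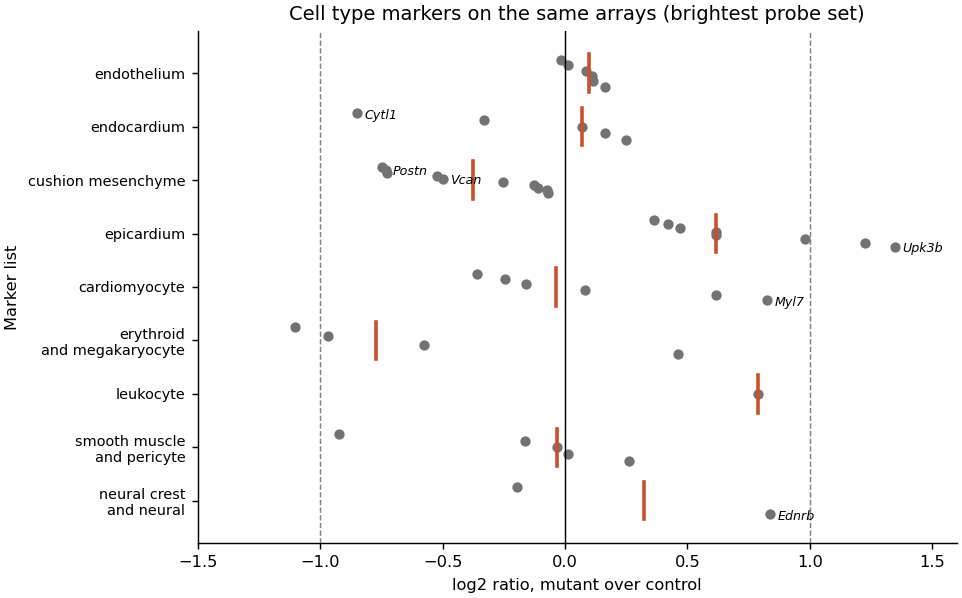
log2 ratio of mutant over control for the measured cell type markers, 1 grey point per gene by its brightest probe set, with a red bar at each list's median and dashed lines at 2-fold. All 10 cushion mesenchyme markers lie below 0 around a median of -0.38, all 8 measured epicardial markers lie above 0 around 0.62, and the endothelial markers cluster near 0.10.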

How the data were processed

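The authors deposited 1 linear intensity per probe set for each of the 2 arrays, computed by MAS5, as the submitters' processing notes name it. The software version is not given in the sources used here. After trimming 2% of probe sets at each end, the mean was 500.0 on either array, so the deposited signals carry a single scaling factor each. Such a factor leaves trends with brightness in place, and mismatch subtraction makes dim ratios noisy.

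Of 45037 non-control probe sets, 34945 named 1 gene in the platform annotation, 932 several and 9160 were not listed. Sets naming several genes or none were left out. Signals were put on the log2 scale with Python 3.11.15 and pandas 2.3.3, and values under each array's median were set to that floor. Where 1 value per gene is needed, it is that of the brightest probe set by mean log2 signal. The SD between probe sets pools genes with several measured ones. The members, lists and tests were chosen with earlier results of these data known. Named from the heparan sulfate groups are the 4 genes with the largest absolute ratio and any at 2-fold, and from each marker list mainly its brightest genes. Other markers were named after their values were seen. Alternatives were median scaling, quantile normalization, loess (span 0.3), a floor at the 25th or the 75th percentile, a pseudocount of the array median, other probe set choices, and folds of 1.5 and 3. The steps were tested on simulated data. The number of arrays limits the precision.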

Additional observations from a re-analysis of the deposited data

How the results depend on the processing

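Under the 8 alternatives in scaling, floor, pseudocount and probe set choice, Gpc1, Gpc3, Gpc4 and Sdc4 kept their direction, while Gpc6, Sdc1, Sdc2 and Sdc3 each turned in at least 1. Probe set choice could not turn the first group. Gpc1 and Gpc3 have 1 probe set each, and the measured probe sets of Gpc4 and of Sdc4 share a direction. Sdc2 and Sdc3 turned with the median over probe sets alone. With the median over probe sets, the median of the 8 members was -0.30 instead of 0.03; it was -0.10 with unsuffixed probe sets, -0.0016 after quantile normalization and -0.0087 after loess. At 1.5-fold, 1 of the 8 members was lower, against 6.61% of all measured genes. The floor at the 75th percentile left 2 of 4 measured glypican probe sets lower, and 3 of 7 syndecan ones, counts added after seeing the data. With that floor 47.7% of all measured genes were lower by brightest probe set, a share of genes and not of probe sets. In the heparan sulfate list, genes at least 2-fold lower numbered 1 (1.46% of all measured genes), 2 with the floor at the 25th percentile (3.95%), 0 with unsuffixed probe sets (1.57%) and 0 at 3-fold (0.18%). At 1.5-fold it had 3 lower and 3 higher, against 6.61% and 4.37% of all measured genes. The list's median turned to -0.0029 with the floor at the 25th percentile and to -0.049 with a pseudocount, where the median of all genes moved to -0.09. No paired analysis was possible because each genotype has 1 array, and for the same reason no replicate could be left out. Causes of these shifts were not tested. Signal over background limits dim probe sets, such as 1419689_at of Gpc6.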
